A study of Mus musculus with 58 samples.

Results

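Lung RNA of 5 Muta™Mouse males dosed with 12.5 mg/kg-bw/day of indeno(1,2,3-cd)pyrene (IP) was compared with that of 5 males dosed with the olive oil vehicle alone. These 10 arrays were chosen by tissue and dose from the labels, out of 58 arrays in all, of which 20 were of lung. Muta™Mouse is a transgenic strain that carries a bacterial lacZ reporter in the DNA of its cells, in control and dosed animals alike, and is used to count mutations. All mice were about 13 weeks old and were gavaged daily for 28 days, and the lungs were taken 72 h after the last dose. Each mouse gave 1 array, on which its RNA was labelled with Cy5 and a universal reference RNA pooled from mouse cell lines with Cy3. The values given here are log2 ratios of Cy5 to Cy3, called log2 ratios below, and a difference between groups is a log2 fold change. The RNA came from a random slice of the right lobe of the lung and was not separated by cell type. The 5 mice at 25 and the 5 at 50 mg/kg-bw/day entered the same fit, and are described where they are set beside the lowest dose.

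IP is a polycyclic aromatic hydrocarbon. Hydrocarbons of this kind can bind the aryl hydrocarbon receptor (AhR), a transcription factor that pairs with ARNT and binds DNA at xenobiotic response elements with the core GCGTG. Its targets include the cytochromes P450 Cyp1a1, Cyp1a2 and Cyp1b1, which oxidize them to intermediates that can bind DNA, and Ahrr, a repressor of the receptor. Cells with damaged DNA activate p53, which induces genes of cell cycle arrest and cell death.

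The arrays carried the markers of lung that their labels call for. The log2 ratio of Sftpc, the surfactant protein of alveolar type 2 cells, was 7.86 ± 0.38 (SD, n = 5) in vehicle mice and 7.88 ± 0.34 (SD, n = 5) at 12.5 mg/kg-bw/day. That of Scgb1a1, the secretoglobin of club cells, was 7.54 ± 0.12 (SD, n = 5) and 7.63 ± 0.18 (SD, n = 5), and that of Ager, a marker of alveolar type 1 cells, was 5.44 ± 0.31 (SD, n = 5) and 5.49 ± 0.38 (SD, n = 5). Each slide of the arrays held 1 lung of each dose, always in the same array column, so that dose and column cannot be told apart. Between 53.0 and 90.7% of probes per lung array were well above background in Cy5, with 83.8 to 90.7% on the 4 arrays of slide 3 and at most 70.4% on the others. Mice on one slide departed together from their group means, with a correlation across probes of 0.24 to 0.71 between the vehicle and the 12.5 mg/kg-bw/day mouse of a slide. Values with slide as a block in the fit are therefore given beside the others where they change a call.

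The promoters of the 3 AhR targets whose levels are described first hold the core of the response element, and are shown for that reason. Each runs from 250 bases before the transcription start to 50 after it, in the direction of the gene, from RefSeq on GRCm38.p6. Capitals mark the core GCGTG, or CACGC where it lies on the other strand. The windows are chr9:57697363-57697662 (+ strand) for Cyp1a1, chr17:79715012-79715311 (− strand) for Cyp1b1 and chr13:74292282-74292581 (− strand) for Ahrr.
Cyp1a1: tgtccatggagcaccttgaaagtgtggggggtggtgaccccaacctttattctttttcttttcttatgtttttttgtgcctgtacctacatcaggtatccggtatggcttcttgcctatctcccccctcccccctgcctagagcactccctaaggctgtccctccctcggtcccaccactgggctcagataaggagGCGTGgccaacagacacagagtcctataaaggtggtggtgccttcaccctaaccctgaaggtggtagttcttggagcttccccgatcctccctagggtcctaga
Cyp1b1: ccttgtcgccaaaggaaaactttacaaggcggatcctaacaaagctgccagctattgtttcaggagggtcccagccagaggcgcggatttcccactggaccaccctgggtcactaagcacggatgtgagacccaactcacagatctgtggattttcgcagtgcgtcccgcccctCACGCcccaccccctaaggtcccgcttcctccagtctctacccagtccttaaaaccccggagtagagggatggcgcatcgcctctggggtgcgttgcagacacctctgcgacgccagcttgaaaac
Ahrr: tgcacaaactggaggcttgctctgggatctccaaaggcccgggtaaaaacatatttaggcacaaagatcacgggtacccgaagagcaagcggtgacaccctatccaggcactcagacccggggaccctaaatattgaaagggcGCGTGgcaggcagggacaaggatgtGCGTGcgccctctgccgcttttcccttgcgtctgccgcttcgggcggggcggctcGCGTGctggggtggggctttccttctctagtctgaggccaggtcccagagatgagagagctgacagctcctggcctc
The window of Cyp1a1 held 1 core, that of Cyp1b1 held 1 and that of Ahrr held 3. Of the 12 genes of the AhR battery 10 had a window, and 6 of these held at least 1 core, against 32.4% of all 32851 windows. At least 3 cores were found in 3.91% of all windows. A match of 5 letters is a description of the sequence and not a binding site, and elements outside the window were not read.

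Between 12.5 mg/kg-bw/day and vehicle, no probe differed by at least 1.5-fold with an adjusted p of at most 0.05. The limma fit tested 55681 probes, and 0% of them were called. The smallest adjusted p was 0.0877. An unadjusted p under 0.05 was found for 2182 probes, or 3.92%. Of these, 63.8% were higher at 12.5 mg/kg-bw/day, but 35.4% when loess was replaced by setting each array's median to 0, so that this split has no settled direction. The Fs statistic, the test named in the study's methods, as run here also called 0 probes and gave 2333 with an unadjusted p under 0.05. The 95% confidence interval lay within 1.5-fold of vehicle for 95.3% of probes, and for 92.0% of the 27321 probes that were well above background on all 10 arrays. These shares depend on the processing, and the signals used here are not background-subtracted. The share over all probes was 40.6% with the scanner's own background-subtracted log ratios and 68.5% with arrays centred on their medians.

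**Figure D1:**
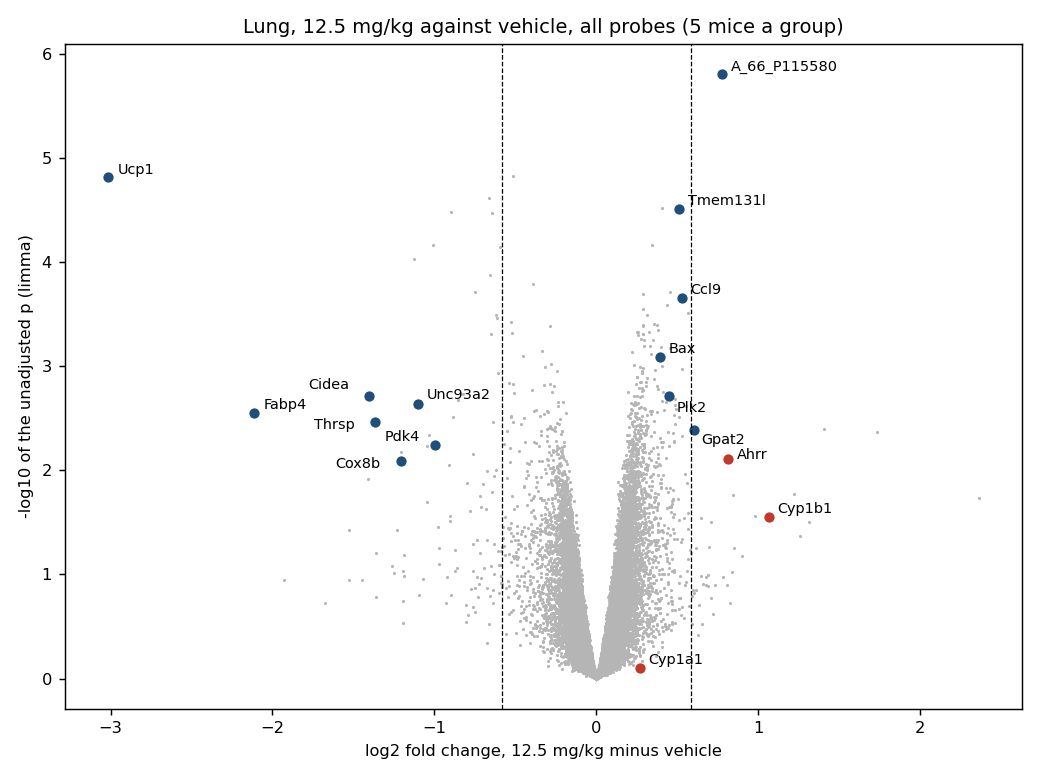
Each point is 1 of 55681 probes, with the log2 fold change of 12.5 mg/kg-bw/day minus vehicle on the x axis and −log10 of the unadjusted p of limma on the y axis. Dashed lines mark 1.5-fold, AhR genes are red and other named probes blue. Ucp1 lies farthest to the left at −3.01, A_66_P115580 lies highest, and Cyp1a1 lies near the bottom.

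With slide as a block, 1 probe was called, A_66_P115580, or 0.0018% of the probes. Its log2 ratios were 0.13, 0.13, 0.38, 0.03 and 0.00 in vehicle mice 1 to 5 and 0.69, 0.91, 0.95, 0.95 and 1.05 in mice 6 to 10 at 12.5 mg/kg-bw/day. All dosed mice lay above all vehicle mice, on each of the 5 slides. This probe differed by 0.78 (SE 0.12), or 1.71-fold, with an adjusted p of 0.0877 by limma without the block and 0.0416 with it. The same probe was 0.89 above vehicle at 25 mg/kg-bw/day, with an adjusted p of 0.0107 by limma, and 1.36 at 50 mg/kg-bw/day, with an adjusted p of 9.67e-06 by limma. These comparisons share the vehicle mice. The probe is assigned to an Ensembl transcript that was not paired with a gene symbol here.

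Of the AhR battery, Cyp1b1 and Ahrr were the members with the largest differences, and neither passed the adjusted threshold. Cyp1b1, a cytochrome P450 that oxidizes aromatic hydrocarbons and oestrogens, had log2 ratios of −2.04, −2.48, −1.74, −1.88 and −1.76 in the vehicle mice and −1.35, −0.53, −0.46, −1.26 and −0.98 in the dosed mice. The lowest dosed mouse lay above the highest vehicle mouse. Cyp1b1 differed by 1.06 (SE 0.45), or 2.09-fold, with an adjusted p of 1 by limma and p = 0.00794 by the exact two-sided permutation test over the 10 mice, the smallest p that 5 against 5 can give. The fit shares one estimate of the spread among the 4 doses, and the SD of Cyp1b1 was 0.31 in vehicle mice, 0.41 at 12.5 and 1.43 at 50 mg/kg-bw/day.

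Ahrr, the repressor that limits AhR signalling, had log2 ratios of −0.83, −0.54, −0.25, −0.65 and −0.54 in vehicle mice and 0.12, 0.55, 0.11, 0.17 and 0.32 at 12.5 mg/kg-bw/day. The groups did not overlap, and the dosed mouse was the higher on all 5 slides. The log2 fold change was 0.81 (SE 0.28), or 1.76-fold, with an adjusted p of 1 by limma and p = 0.00794 by the exact permutation test. The probe was well above background in 3 of 5 vehicle mice and in all 5 dosed mice. A second, dimmer probe of Ahrr was well above background in 1 of these 10 mice and differed by 0.08 (SE 0.09). Groups that did not overlap were found for 0.42% of 55667 probes in the higher direction and for 0.214% in the lower direction, and for 2 of 12 genes of the AhR battery.

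Cyp1a1, the classical hydrocarbon-inducible cytochrome P450, varied widely among mice of both groups. Its log2 ratios were 4.08, 2.11, 1.95, 0.73 and 0.88 in vehicle mice 1 to 5 and 1.96, 4.53, 3.82, 0.43 and 0.33 in mice 6 to 10. The highest vehicle mouse lay above 4 of the 5 dosed mice. The log2 fold change of 0.27 (SE 0.98) had a 95% interval from −1.77 to 2.31 and an unadjusted p of 0.788 by limma. It was negative with vehicle mouse 4 or 5, or dosed mouse 7 or 8, left out, to −0.31 without mouse 7, and with the scanner's own log ratios. Mice 7 and 8 were also the dosed mice with the highest Cyp1b1, at −0.53 and −0.46.

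The other AhR genes were near vehicle. Gsta1, a glutathione S-transferase, differed by 0.28 (SE 0.32), with −0.38 and −0.46 in mice 7 and 8 and −2.29 and −1.96 in mice 9 and 10, and 4 of the vehicle mice lay between −1.70 and −1.54. Ugt1a6a, which conjugates glucuronic acid, differed by 0.14 (SE 0.14), the receptor Ahr by 0.13 (SE 0.16), Cyp2s1 by 0.09 (SE 0.15), the aldehyde dehydrogenase Aldh3a1 by 0.06 (SE 0.20), the quinone reductase Nqo1 by 0.05 (SE 0.20) and the partner Arnt by 0.04 (SE 0.07). Tiparp, an ADP-ribosyltransferase that AhR induces, differed by −0.08 (SE 0.10). Cyp1a2 was well above background in 1 mouse of each group, and no level can be given. In all, 10 of 12 members were higher and 2 lower, with a median log2 fold change of 0.11, beside 51.5% of 20018 genes higher and a median of 0.00 over all genes. These counts include Cyp1a2, as lower, and 3 of the 12 members were not well above background on all 10 arrays. An unadjusted p under 0.05 was found for 2 members, both higher, where 3.68% of all genes were higher at that threshold. Of those counted as higher, Cyp1a1, Nqo1, Aldh3a1, Cyp2s1 and Arnt turned negative with other processing or with mice left out. The mean level of the list was 0.69 and 0.52 above the vehicle mean in mice 7 and 8 and 0.14 above it in mouse 6. In mice 9 and 10 it was −0.11 and −0.06 from that mean, and the dosed mouse was the higher on 3 of 5 slides.

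**Figure D2:**
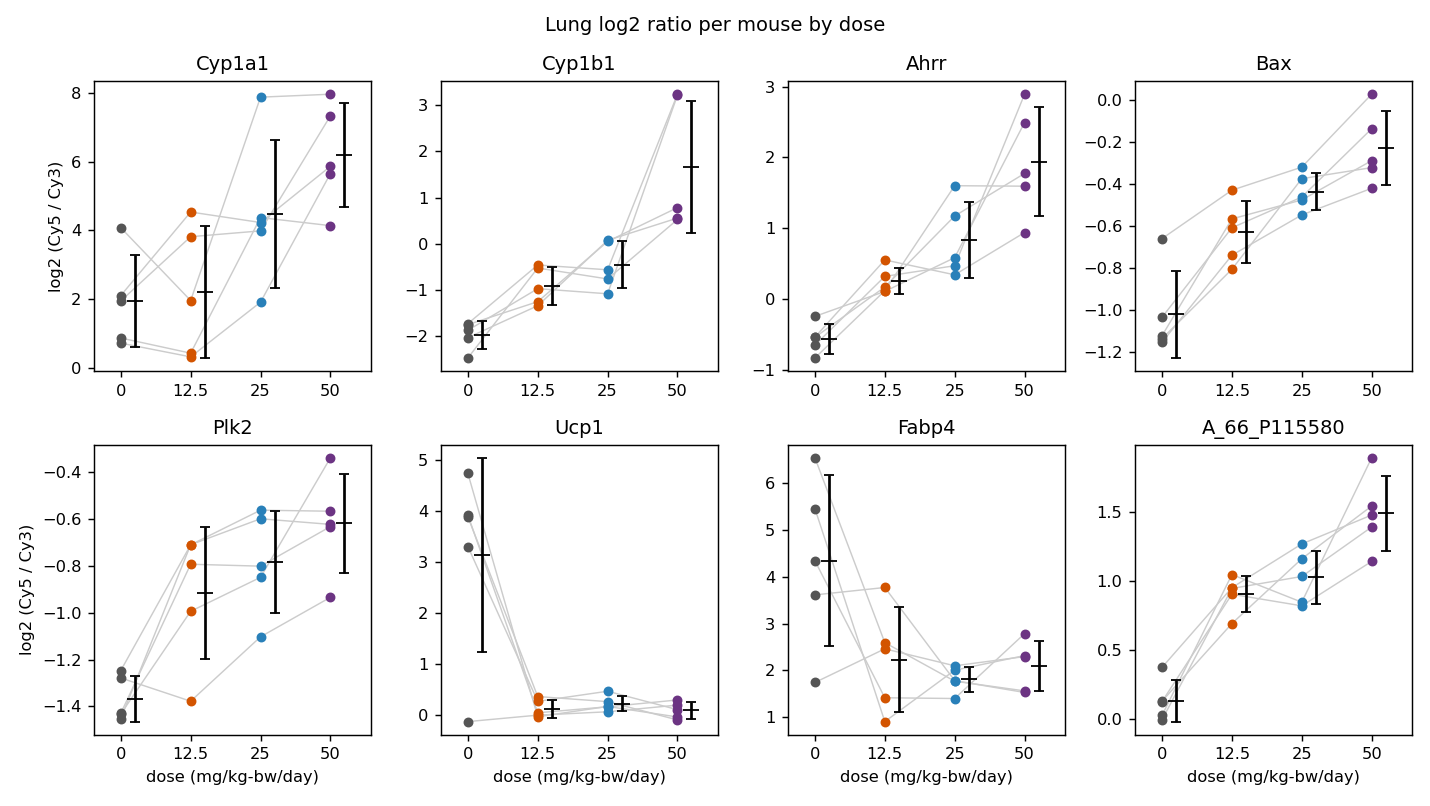
Log2 ratios (y axis) of 8 probes in every lung by dose in mg/kg-bw/day (x axis, doses equally spaced), with grey lines joining the arrays of 1 slide and black bars giving the mean ± SD beside the 5 mice of each dose. Cyp1b1, Ahrr and A_66_P115580 do not overlap between vehicle and 12.5, Cyp1a1 does, and Ucp1 is near 0 in all dosed mice and in 1 vehicle mouse.

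The lowest dose was also compared with the higher ones. At 25 mg/kg-bw/day the log2 fold change from vehicle was 1.52 for Cyp1b1, 1.39 for Ahrr and 2.53 for Cyp1a1, and at 50 mg/kg-bw/day it was 3.64, 2.50 and 4.24. These share the vehicle mice with the lowest dose, so the doses were compared directly. Between 25 and 12.5 mg/kg-bw/day 0% of probes were called, with or without slide as a block. Between 50 and 12.5 mg/kg-bw/day 1 probe, or 0.0018%, was called without the block, that of Iqgap3, a cytoskeletal scaffold of dividing cells, which was higher at 50 by 0.85 (SE 0.11) with an adjusted p of 0.0120 by limma. With slide as a block 21 probes, or 0.0377%, were called, all higher at 50 mg/kg-bw/day. Ahrr, Cyp1b1 and Cyp1a1 were among them, higher at 50 than at 12.5 by 1.68, 2.58 and 3.97 with an adjusted p of 0.0200 each by limma with the block, and so was the p53 target Cdkn1a, by 1 of its probes, at 0.67 with an adjusted p of 0.0166. Many of the others are genes of dividing cells, such as Mki67, Birc5, Cdc20, Ccna2 and Rrm2. At 12.5 mg/kg-bw/day the 21 mitosis genes had a median log2 fold change from vehicle of −0.01, with 9 higher and 12 lower and no unadjusted p under 0.05, and at 50 mg/kg-bw/day their median was 0.45. This list holds Mki67, Birc5 and Cdc20 and was chosen with earlier results of these data known. Its median at 50 mg/kg-bw/day is therefore not independent of the calls above.

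Among other enzymes of foreign compounds, epoxide hydrolase Ephx1, which takes their epoxides to diols, had the smallest p. Its log2 ratio was 1.09 to 1.32 in vehicle mice, with a median of 1.16, and 1.78 in mouse 7, 1.47 in mouse 8 and 1.30 in mice 6 and 10. Mouse 9 lay within the vehicle range, so the groups overlapped. Ephx1 thus differed by 0.23 (SE 0.09), or 1.18-fold, with an adjusted p of 1 by limma, and its second probe differed by 0.25 (SE 0.11). The 25 mg/kg-bw/day mice were 0.37 above vehicle and the 50 mg/kg-bw/day mice 0.41. It was the only 1 of 21 such enzymes with an unadjusted p under 0.05 in that fit. Of all genes 3.68% were higher at that threshold, and of these enzymes 9 were higher and 12 lower. Of 14 targets of NRF2, the regulator of antioxidant defence, 2 were higher at an unadjusted p under 0.05, where 3.68% of all genes were. These were the peroxiredoxin Prdx1 at 0.20 (SE 0.07) and the thioredoxin reductase Txnrd1 at 0.23 (SE 0.10), both higher in 4 of 5 slides, and the list's median was 0.06. The mean level of the NRF2 list was higher in the dosed mouse on 2 of 5 slides. It was 0.42 above the vehicle mean in mouse 7, and from −0.12 to 0.07 from that mean in the other dosed mice.

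Bax, Plk2 and Aen were the p53 targets with an unadjusted p under 0.05 in the higher direction, and none of them passed the adjusted threshold. Bax, which permeabilizes mitochondria in cell death, had log2 ratios of −0.66, −1.12, −1.15, −1.14 and −1.04 in vehicle mice and −0.43, −0.57, −0.74, −0.61 and −0.81 in dosed mice. Vehicle mouse 1 stood above the other vehicle mice and among the dosed ones, and within its slide the dosed mouse was still the higher, as on the other 4 slides. Bax differed by 0.39 (SE 0.10), or 1.31-fold, with an adjusted p of 0.895 by limma and 0.119 with slide as a block. Bax was 0.59 above vehicle at 25 mg/kg-bw/day and 0.79 at 50 mg/kg-bw/day, with adjusted p values of 0.0381 and 0.00147 by limma. It was 0.40 (SE 0.10) higher at 50 than at 12.5 mg/kg-bw/day, with an adjusted p of 0.701 by limma and 0.0200 with slide as a block.

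Plk2, a kinase of the stress response, was at −1.28, −1.45, −1.43, −1.43 and −1.25 in vehicle mice and −1.38, −0.71, −0.79, −0.71 and −0.99 in dosed mice. Mouse 6 lay within the vehicle range and the other 4 dosed mice above it. Plk2 differed by 0.45 (SE 0.13), with an adjusted p of 1 by limma, and it was 0.58 at 25 and 0.75 at 50 mg/kg-bw/day. The nuclease Aen, named after its values were seen, differed by 0.24 (SE 0.09) by its brighter probe and by 0.18 (SE 0.09) by its other. The antiproliferative Btg2 was the p53 target with an unadjusted p under 0.05 in the lower direction, at −0.25 (SE 0.11). By the brightest probe of each gene, the inhibitor of cyclin-dependent kinases Cdkn1a differed by −0.14 (SE 0.20), while its probe called between the doses differed from vehicle by 0.22 (SE 0.16), and Mdm2, the ligase that degrades p53, by −0.06. Over the 24 p53 targets 12 were higher and 12 lower, with a median of 0.00. At an unadjusted p under 0.05, 3 were higher and 1 lower, where 3.68% and 1.66% of all genes were. None of 16 DNA repair genes had an unadjusted p under 0.05, with log2 fold changes from −0.23 to 0.13.

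The 8 largest increases and 8 largest decreases were taken among 250 probes with a gene symbol that were well above background on all 10 arrays, had an unadjusted p under 0.01 and had all dosed mice on one side of the vehicle mean. Of these 250 probes, 191 were higher and 59 lower. None of the 16 passed the adjusted threshold, and their values describe the top of a ranking.

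Several of the top increases were in genes of white blood cells. Lsp1, an actin-binding protein of leukocytes, was at 1.18 to 1.98 in vehicle mice, with a median of 1.80, and at 1.94 to 2.60 in dosed mice, with a difference of 0.53 (SE 0.14). The chemokine Ccl9 was at 0.07, −0.13, 0.17, 0.13 and 0.13 in vehicle mice and 0.21, 0.46, 0.91, 0.57 and 0.86 in dosed mice, which did not overlap, with a difference of 0.53 (SE 0.12) and an adjusted p of 0.684 by limma. Myo1f, an unconventional myosin of immune cells, differed by 0.48 (SE 0.14) and 0.48 (SE 0.15) by 2 probes, and Dok3, an adaptor of immune receptor signalling, by 0.48 (SE 0.15). The 3 remaining increases had other roles. Gpat2, a mitochondrial acyltransferase, differed by 0.60 (SE 0.19). Eif2s3y, a subunit of a translation initiation factor encoded on the Y chromosome, differed by 0.55 (SE 0.16), and the groups did not overlap. Its X-linked partner Eif2s3x, named after its values were seen, differed by 0.45 (SE 0.10) by 1 probe and 0.14 (SE 0.10) by another. Tmem131l, a transmembrane protein, was at −1.51 to −0.94 in vehicle mice and −0.74 to −0.51 in dosed mice, with a difference of 0.51 (SE 0.10) and an adjusted p of 0.235 by limma, but its second probe differed by only 0.15 (SE 0.11).

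Lists of T cell, B cell, alveolar macrophage and neutrophil markers had medians above 0, with no member called, whereas 5 of 6 natural killer cell markers were lower, with a median of −0.13. Of 10 T cell markers 9 were higher and 4 had an unadjusted p under 0.05, where 3.68% of all genes were higher at that threshold, with a median of 0.29. Among these were Cd6 at 0.39 (SE 0.12) and Cd5 at 0.44 (SE 0.17), receptors that tune T cell activation, and Cd3g at 0.36 (SE 0.14), a chain of the T cell receptor complex. Cd3e at 0.03 and Cd4 at 0.00 were near vehicle. The mean level of the T cell list was −0.88 to −0.16 in vehicle mice and −0.40 to 0.11 in dosed mice, with the dosed mouse the higher on 3 of 5 slides. The lowest vehicle level was that of mouse 2, and the next lowest was −0.47, in vehicle mouse 4. In tissue of mixed cells, a difference in the number of cells of a type and one in the RNA per cell cannot be told apart.

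B cell markers had a larger median of 0.45, with 7 of 8 higher and none at an unadjusted p under 0.05, but 4 with slide as a block, a fit in which 6.49% of all genes were higher at that threshold. The mean level of the list was 0.00 to 0.95 in vehicle mice and −0.03 to 1.48 in dosed mice, with the dosed mouse the higher on 4 of 5 slides. The lowest vehicle level was again that of mouse 2, and the lowest dosed level was that of mouse 8, on slide 3. Among alveolar macrophage markers 5 of 7 were higher, with a median of 0.28 and Adgre1, the macrophage antigen F4/80, at 0.28 (SE 0.13). The mean level of that list was −0.11, −0.03 and −0.17 from the vehicle mean in mice 6, 7 and 8. It was 0.57 and 0.63 above that mean in mice 9 and 10, and the dosed mouse was the higher on 4 of 5 slides. Among neutrophil markers 9 of 10 were higher, with a median of 0.19 and S100a8, a subunit of calprotectin, at 0.57 (SE 0.25). Its highest value of 3.17 was that of mouse 9. Of 16 inflammatory mediators, 2 were higher at an unadjusted p under 0.05, where 3.68% of all genes were. They were the cytokine Il1b at 0.51 (SE 0.22) and the siderophore-binding Lcn2 at 0.36 (SE 0.17). Il1b too was highest in mouse 9, at 2.93. None of 18 interferon-stimulated genes had an unadjusted p under 0.05. Of these 15 were higher and 3 lower, with a median of 0.11, beside 51.5% of all genes higher and a median of 0.00.

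**Figure D3:**
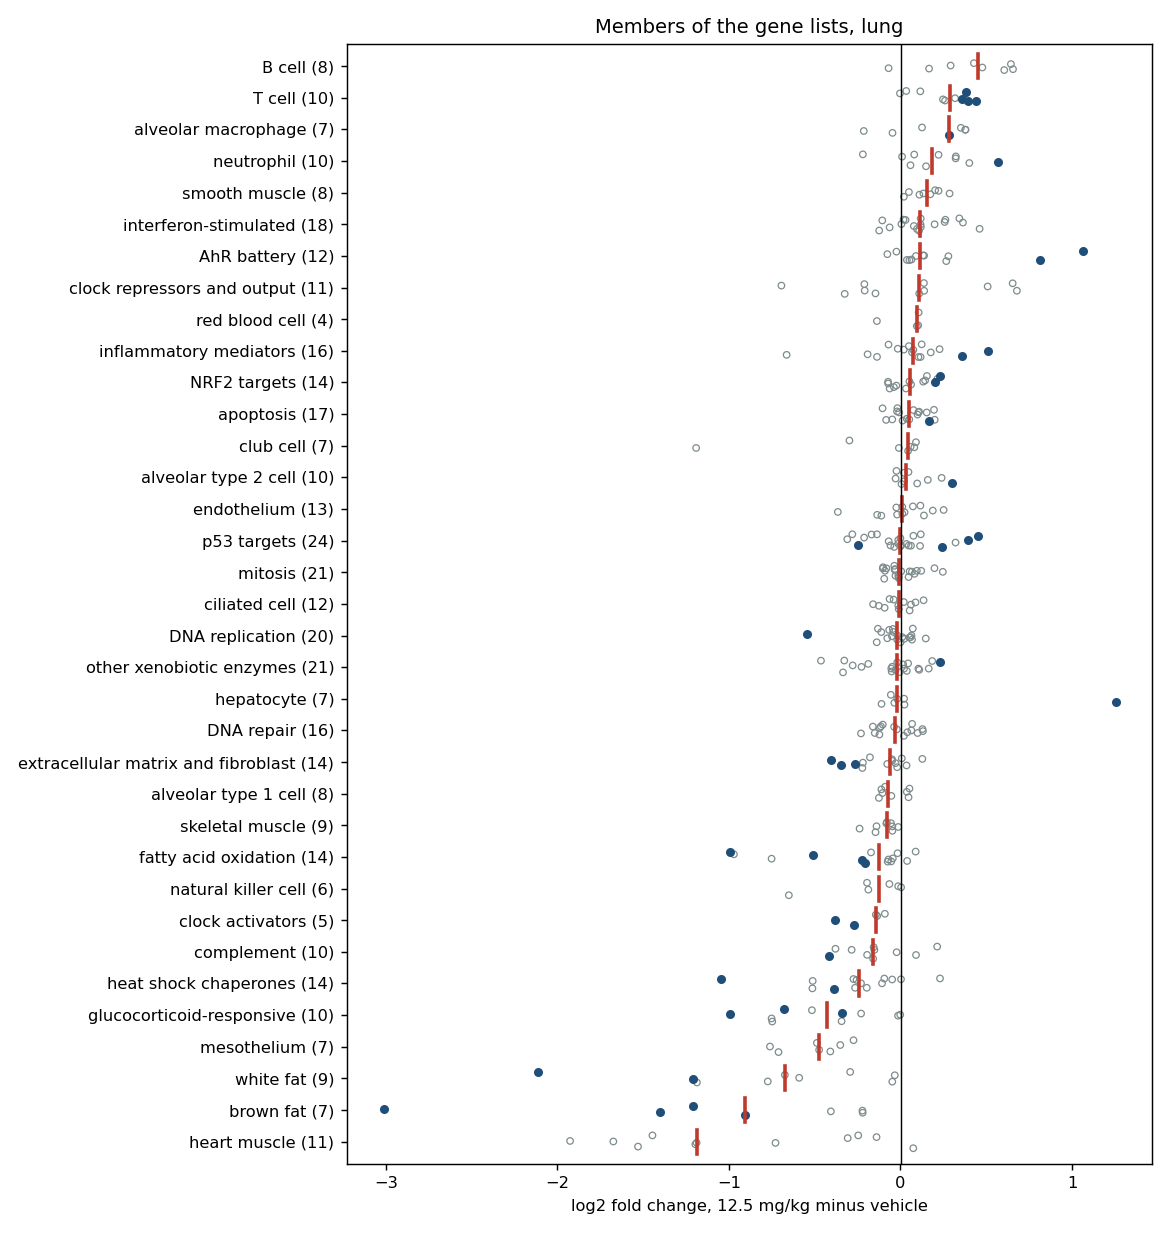
Log2 fold changes (x axis) of the members of 35 gene lists (y axis, number of genes measured in brackets), 1 point per gene by its brightest probe, filled where the unadjusted p is under 0.05, with red bars at the list medians and a black line at the median of all genes. Heart muscle, brown fat, white fat and mesothelium lie lowest, B cell and T cell markers highest, and the members of the p53 list lie on both sides of 0.

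The largest decreases were in genes of fat. Fabp4, the fatty acid carrier of adipocytes, had log2 ratios of 1.74, 6.54, 3.61, 4.34 and 5.46 in vehicle mice 1 to 5 and 2.46, 2.59, 3.77, 0.90 and 1.41 in mice 6 to 10. Vehicle mouse 1 lay below 3 of the dosed mice, and the groups overlapped. The log2 fold change was −2.11 (SE 0.62), with an adjusted p of 1 by limma and p = 0.0714 by the exact permutation test. Cidea, a lipid droplet protein, differed by −1.40 (SE 0.39), Thrsp, a regulator of lipid synthesis, by −1.37 (SE 0.41), Cox8b, a subunit of cytochrome oxidase in brown fat and muscle, by −1.21 (SE 0.41), Adig, which acts in adipocyte formation, by −1.04 (SE 0.34), and Mrap, an accessory protein of the melanocortin-2 receptor, by −0.88 (SE 0.26). In each of these 5 genes, vehicle mouse 1 had a lower value than vehicle mice 2, 4 and 5.

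Ucp1, the uncoupling protein of brown fat, had the fitted difference farthest from 0 among all gene symbols. It was at −0.13 in vehicle mouse 1 and at 3.91, 3.88, 4.73 and 3.30 in vehicle mice 2 to 5, and at 0.00, 0.04, 0.36, 0.27 and −0.04 in the dosed mice. The dosed mice thus lay at the level of vehicle mouse 1, and the probe was well above background in 4 vehicle and 2 dosed mice, so that its fold changes are taken against a level near background. Ucp1 differed by −3.01 (SE 0.54), with an adjusted p of 0.235 by limma, and the exact permutation test gave p = 0.0476. Without vehicle mouse 1 it was −3.83 with an adjusted p of 4.37e-10 by limma, and it was then the 1 probe called. At 25 and 50 mg/kg-bw/day Ucp1 was also low, at −2.92 and −3.05 from the same vehicle mice.

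All 7 brown fat markers and all 9 white fat markers were lower, with medians of −0.90 and −0.67, and 4 and 2 of them had an unadjusted p under 0.05, where 1.66% of all genes were lower at that threshold. The mean level of the brown fat list was 1.23 to 2.74 in vehicle mice and 0.95 to 1.61 in dosed mice, and that of white fat was 1.11 to 3.59 and 1.26 to 2.25. The lowest vehicle level of each list was that of mouse 1, and on its slide the medians were higher in the dosed mouse, by 0.21 and 0.63. Within the other slides the brown fat median was lower in the dosed mouse by values from −0.42 to −2.22, and that of white fat was lower on 3 of 4. Whether the amount of fat taken with a slice of lung differed was not tested.

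Markers of heart-type muscle, which in mice also sheathes the pulmonary veins, had the lowest median of −1.19, with 10 of 11 lower but none at an unadjusted p under 0.05. Sarcolipin, Sln, a regulator of the calcium pump, was at 3.94 to 6.64 in vehicle mice, and at 5.55, 3.92, 5.43, 0.00 and 1.92 in mice 6 to 10. Mice 9 and 10 lay well below the vehicle range, and mouse 7 at its lower end. The list level was 1.23 to 3.40 in vehicle mice and −0.04 to 2.53 in dosed mice, and the dosed mouse was lower on 3 of 5 slides. Mesothelium, the cell layer that covers the lung, had 7 of 7 markers lower, with a median of −0.47 and a list level of 0.34 to 1.09 in vehicle mice and −0.14 to 1.11 in dosed mice. Skeletal muscle had a median of −0.08, and 6 of its 9 markers were not well above background on all 10 arrays.

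**Figure D4:**
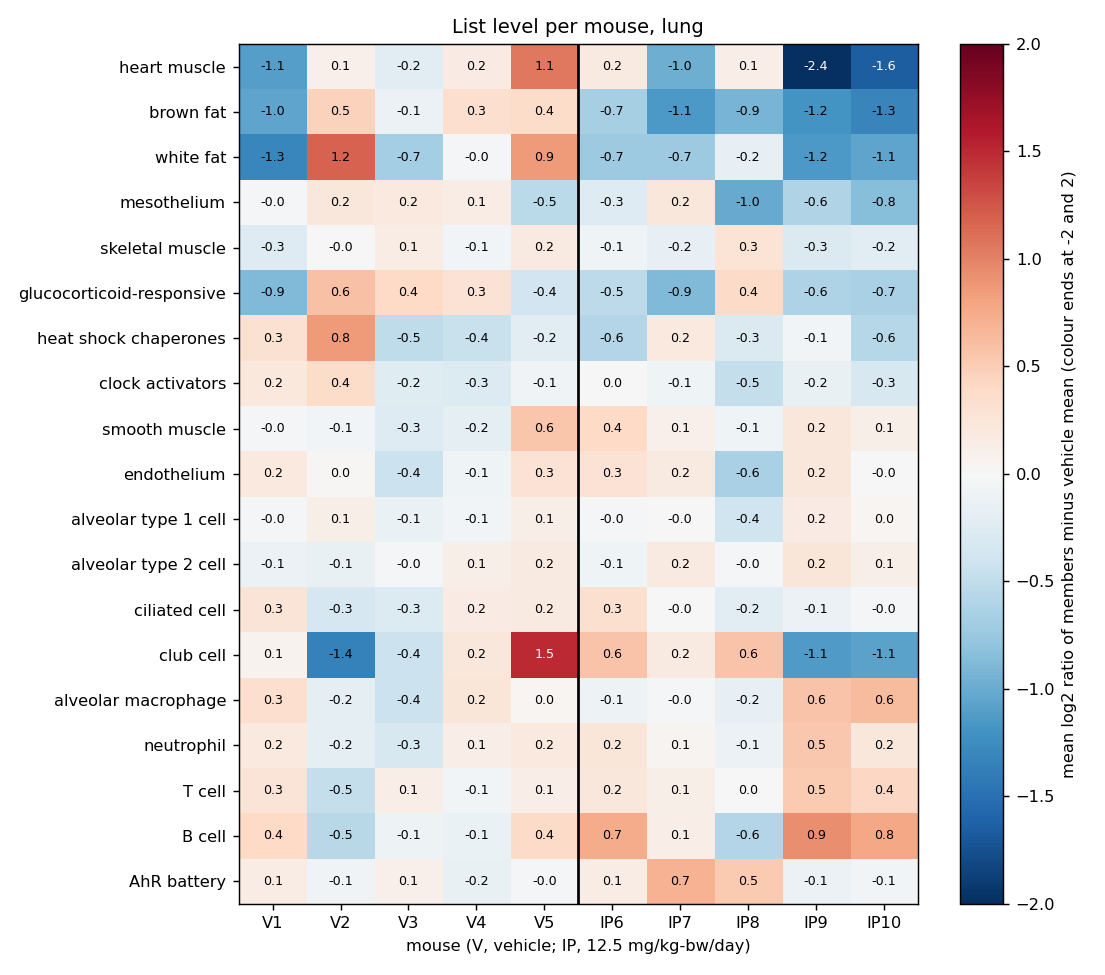
Mean log2 ratio of the members of 19 gene lists (rows) minus the vehicle mean, in the 5 vehicle mice (V) and the 5 mice at 12.5 mg/kg-bw/day (IP), with red for higher and blue for lower. Brown fat is low in vehicle mouse 1 and in all dosed mice, and white fat and heart muscle are low in vehicle mouse 1 as in dosed mice 9 and 10. T and B cell markers are high in mice 9 and 10, B cell markers also in mouse 6, and the AhR list is high in mice 7 and 8.

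The 2 other large decreases were in membrane transporters and their relatives. Slc5a12, a lactate transporter, differed by −0.86 (SE 0.24). By its second probe, its log2 ratios were 1.66, 2.07, 0.86, 1.67 and 0.90 in vehicle mice and 1.28, 0.09, 0.20, 0.64 and 0.82 in dosed mice, a difference of −0.82 (SE 0.23). Unc93a2, of the UNC93 family, was at 1.13 to 2.57 in vehicle mice and 0.17 to 1.61 in dosed mice, with a difference of −1.10 (SE 0.32). Both were lower in the dosed mouse on all 5 slides, which held for none of the fat genes named above, and both had an adjusted p of 0.215 by limma with slide as a block.

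Genes that respond to glucocorticoids were lower, 10 of 10 by sign, with a median of −0.43, or −0.24 with arrays centred on their medians. Of these 3 had an unadjusted p under 0.05, where 1.66% of all genes were lower at that threshold. The mean level of the list was −0.03 to 1.43 in vehicle mice and −0.03 to 1.23 in dosed mice. Within slides 1 to 5 the list's median difference was 0.13, −1.24, −0.10, −0.06 and −0.93. Pdk4, a kinase that spares glucose, was at 0.39, 2.46, 1.97, 1.94 and 2.10 in vehicle mice and 0.79, 0.15, 1.95, 0.40 and 0.59 in dosed mice. Vehicle mouse 1 again lay at the level of 4 of the dosed mice. Pdk4 differed by −0.996 (SE 0.32), a difference whose groups overlapped. That of the phosphatase Dusp1 was −0.34 (SE 0.15), and that of Tsc22d3, the glucocorticoid-induced leucine zipper, was −0.68 (SE 0.32). Of 14 genes of fatty acid oxidation, which share Pdk4 and Angptl4 with this list, 12 were lower. At an unadjusted p under 0.05, 4 of them were lower, where 1.66% of all genes were. Pdk4, already counted above, was among these 4, as was the carnitine transferase Cpt1b at −0.51 (SE 0.14). With arrays centred on their medians the list's median was 0.01 in place of −0.12, and with Cy5 alone Cpt1b turned to 0.17.

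Heat shock chaperones had 12 of 14 members lower, with a median of −0.24, or −0.045 with arrays centred on their medians, and the list level was higher in the dosed mouse on 2 of 5 slides. Hspa1a, the inducible HSP70, was at 3.21, 3.59, 0.82, 1.39 and 1.75 in vehicle mice and 0.56, 2.28, 0.69, 1.56 and 0.44 in dosed mice, with a difference of −1.05 (SE 0.42) and the dosed mouse the lower on all 5 slides. Its cochaperone Chordc1 differed by −0.39 (SE 0.18). The list of clock activators held Bmal1, Npas2 and Clock, and also the repressors Nfil3, which shares their phase, and Cry1. All 5 were lower, and 2 had an unadjusted p under 0.05, where 1.66% of all genes were lower at that threshold. These were Clock at −0.27 (SE 0.10) and Nfil3 at −0.38 (SE 0.18), both lower on all 5 slides. Of 11 clock repressors and output genes 6 were higher and 5 lower, from −0.69 to 0.68, with no unadjusted p under 0.05. The hours at which the mice were killed were not used here.

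Other lists had at most 3 members with an unadjusted p under 0.05, and those of alveolar type 1, ciliated, endothelial and club cells had none. Of 10 complement genes 8 were lower, with a median of −0.16, or 0.00 with arrays centred on their medians. Of 14 genes of the extracellular matrix and fibroblasts 11 were lower, with a median of −0.06, or 0.07 with that centring. At an unadjusted p under 0.05, 3 of them were lower, where 1.66% of all genes were. Among them the collagen Col3a1 differed by −0.35 (SE 0.16) and the proteoglycan Lum by −0.40 (SE 0.18). The replicative helicase subunit Mcm6 differed by −0.54 (SE 0.24), the adaptor of death receptors Fadd by 0.17 (SE 0.07), and Etv5, a transcription factor of alveolar type 2 cells, by 0.30 (SE 0.12). Serpina1a, a protease inhibitor, was at −0.61, 2.66, 1.11, 1.09 and 2.86 in vehicle mice and 2.88, 3.34, 1.57, 3.75 and 1.85 in dosed mice, with a difference of 1.26 (SE 0.58). The lists of alveolar type 2, alveolar type 1, ciliated, endothelial and club cells had medians of 0.03, −0.07, −0.01, 0.01 and 0.04. The club cell list varied widely among mice, with a mean level of 3.33 to 6.17 in vehicle mice and 3.55 to 5.25 in dosed mice. Its median difference within a slide ranged from −3.46 on slide 4 to 1.47 on slide 3.

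A few probes outside the rule stood out after their values were seen. Unc5a, a netrin receptor, was at −0.15 to 0.23 in vehicle mice, where it was well above background in 2 of 5, and at 2.83, 1.97, 0.21, 1.81 and 2.25 in dosed mice. Mouse 8 lay within the vehicle range, and the difference was 1.73 (SE 0.54). One probe of Septin3, a filament protein, was at 0.75 to 1.18 in vehicle mice and 0.03 to 0.75 in dosed mice, with a difference of −0.64 (SE 0.12), and its values were −0.74 and −0.94 from vehicle at 25 and 50 mg/kg-bw/day. A second probe of Septin3 differed by 0.10 (SE 0.06). One probe of the protease inhibitor Serpina3f was split within the vehicle group, at −1.57, 4.03, −0.47, −0.91 and 2.94, and was at 2.01 to 3.92 in dosed mice.

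A stretch of chromosome 15 tiled by probes for long non-coding RNA was lower on one strand, as seen after ranking 1374 regions with at least 5 probes on a strand. The region is listed as chr15:32167516-32174427 and chr15:32167516-32174417 on mm9, the build named in the scanner files. These were the 2 regions with the lowest medians, −0.75 and −0.62, and the third lowest was −0.30. On the reverse strand 10 of 10 probes were lower, and in 8 of them no dosed mouse overlapped a vehicle mouse. These 8 were well above background on all 20 lung arrays and differed by −0.59 to −1.13, whereas the 9 probes of the forward strand differed by −0.11 to 0.07.

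The mean of the 8 probes was 0.13, −0.24, 0.04, −0.17 and 0.22 in vehicle mice 1 to 5 and −0.92, −1.08, −0.61, −0.46 and −0.88 in mice 6 to 10. The groups did not overlap in any of the 8 probes, so the same holds for their mean by construction. The mean difference was −0.79 at 12.5 mg/kg-bw/day, −0.52 at 25 and −0.60 at 50, from the same vehicle mice. None of these probes passed the adjusted threshold, with a smallest adjusted p of 0.235 by limma and 0.125 with slide as a block, and 6 of them were among 7 probes called in a fit of these 2 groups alone with slide as a block. The probe of the small nucleolar RNA Snord123, which in the RefSeq annotation of GRCm38.p6 also lies on chromosome 15, was at −0.02, −0.38, −0.21, −0.54 and 0.22 in vehicle mice and −0.95, −1.09, −0.78, −0.45 and −0.91 in dosed mice, a difference of −0.65 (SE 0.16). The builds differ, and whether both lie in one transcript was not determined.

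**Figure D5:**
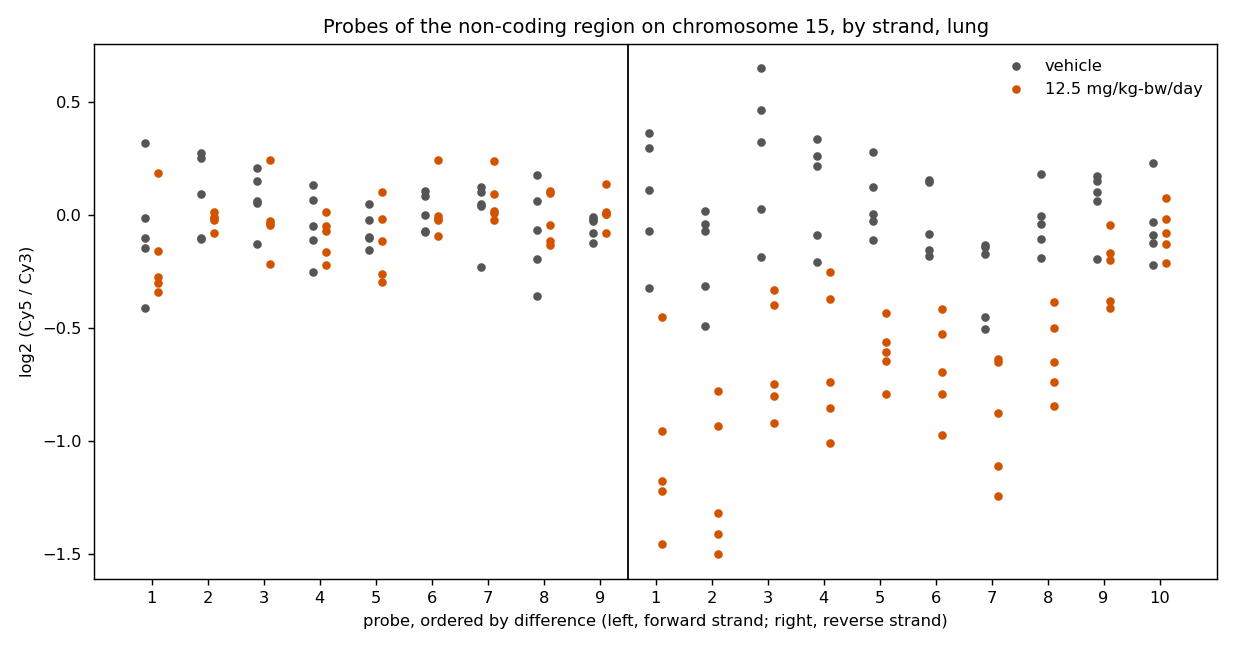
Log2 ratios (y axis) of the 19 probes of the chromosome 15 region (x axis, 9 forward and 10 reverse, ordered by difference within a strand) in the 5 vehicle mice (grey) and the 5 mice at 12.5 mg/kg-bw/day (orange). The groups are apart for 8 reverse-strand probes and overlap on the forward strand.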

How the data were processed

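The labels assigned 10 of 58 arrays to these groups, and each array is 1 numbered mouse. The authors scanned the dual-colour Agilent arrays with Feature Extraction 10.7.3.1, and per the file headers the intensity values are median pixel signals without background subtraction. The log10 ratios of the scanner files as deposited are background-subtracted and dye-normalized. The authors' deposited log2 ratios are LOWESS-normalized medians with a Pearson r of 0.996 to 0.999 with the values used here, a median per array of −0.064 to −0.017, and no stated centring. The 38 columns of other tissues were not used.

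Here the log2 of Cy5 over Cy3 was taken from these signals, normalized by loess within each array (span 0.3), and, after removal of outlier spots, averaged per probe. R 4.3.3, limma 3.58.1, statmod 1.5.0, data.table (version 1.17.8) and, for figures, Python 3.11.15 with matplotlib 3.10.9 were used. The 20 lung arrays were fitted in 1 limma model of 4 doses, two-sided, with Benjamini-Hochberg adjustment over all probes. A probe was called at an adjusted p of at most 0.05 and 1.5-fold. Number of arrays limits the precision. The methods give 4 IP vehicle mice, while the labels number 5 in lung, and all 5 were used.

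RefSeq accessions matched 26413 probes to 20018 symbols, and 29268 probes stayed unnamed. The 35 gene lists hold 420 entries, of which 410 were measured, each by the probe with the brightest Cy5. Named genes are probes called or with the smallest adjusted p, the 8 largest changes each way under the filter given in the text, all AhR genes, up to 2 members of every other list with an unadjusted p under 0.05, and those said to be seen afterwards. Btg2, Cdkn1a, Mdm2, Cd3g, Cd3e, Cd4, Sln and Tsc22d3 were also named after their values were seen. Members and lists were chosen with earlier results of these data known. The alternatives were normexp (offset 50), median-centring, Cy5 alone, the scanner's ratios, the authors' values, no removal of outlier spots or removal of dim probes, slide as a fixed or random block, the 2 groups alone, limma with trend and robust, Fs with 100 shuffles, other thresholds and each mouse left out. The fit was tested on simulated data. Some results are not reported here.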

Additional observations from a re-analysis of the deposited data

Results flagged for a closer look

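Of 110 groups of 5 mice, 7 held a mouse that stood apart by Dixon's test, whose ratio is the gap to the nearest mouse over the range of the group, with a limit of 0.71. Chance gives about 1 in 20. In the vehicle group mouse 1 was highest for Bax (0.759) and lowest for Pdk4 (0.749), mouse 2 was lowest for Myo1f (0.76) and Cd5 (0.736), and mouse 4 was lowest for Eif2s3y (0.711). At 12.5 mg/kg-bw/day mouse 8 was highest for Cyp2s1 (0.905) and Plin1 (0.779).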

How the results depend on the processing

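For 12.5 mg/kg-bw/day against vehicle, the count of 0 called probes became 1 with slide as a fixed or random block, 7 with the 2 groups alone and slide as a block, and 592 at an unadjusted p under 0.05 and 1.2-fold. It was 0 to 1 with single mice left out, 0 without vehicle mouse 4, and 1 without vehicle mouse 1 (Ucp1) or without mouse 17 or 20 at 50 mg/kg-bw/day (A_66_P115580). The 2182 probes with an unadjusted p under 0.05 became 712 with median-centring, 822 with Cy5 alone, 1423 without dim probes, 4529 and 4244 with slide as a fixed or random block, 3996 with the 2 groups alone and slide as a block, and 1763 to 2898 with single mice left out. The share within 1.5-fold fell to 40.6% with the scanner's log ratios and to 68.5% with median-centring. Between 25 and 12.5 mg/kg-bw/day 0 became 324 at an unadjusted p under 0.05 and 1.2-fold. Between 50 and 12.5 mg/kg-bw/day 1 became 5 with normexp, 0 with median-centring, Cy5 alone, the scanner's ratios, and trend and robust, 3 with Fs, 21 and 17 with slide as a fixed or random block, 548 at an unadjusted p under 0.05 and 1.2-fold, and 2 without slide 3, an alternative chosen after seeing the data. It was 0 to 14 with single mice left out, 14 without mouse 20, 3 without mouse 9, 2 without mouse 1 or 17, and 0 without mouse 7, 10, 18 or 19.

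Of 55 named probes 47 kept their direction in all alternatives, and the cause of the other turns was not tested. Tiparp turned to 0.0903 with median-centring. With Cy5 alone Cyp1a2 turned to 0.0121, Nqo1 to −0.0675 and Cpt1b to 0.17. With the scanner's ratios Cyp1a1 turned to −0.42, Cyp1a2 to 0.15 and Arnt to −0.0446. Without slide 3 Cyp1a1 turned to −0.13, Aldh3a1 to −0.0486 and Arnt to −0.0127. With single mice left out, Cyp1a1 ranged from −0.31 to 0.80, Cyp1a2 from −0.0581 to 0.0093, Nqo1 from −0.15 to 0.18, Aldh3a1 from −0.0496 to 0.22 and Cyp2s1 from −0.0206 to 0.14. A single mouse moved 16 other named probes by over 1.5 times with the sign kept. Without vehicle mouse 2 Cd5 was 0.24, Chordc1 −0.21, Dusp1 −0.17, Hspa1a −0.69 and Nfil3 −0.22. Without dosed mouse 7 Ephx1 was 0.14, Txnrd1 0.11 and Gsta1 0.06, without mouse 8 Col3a1 was −0.20 and Lcn2 0.23, and without mouse 9 Il1b was 0.33, S100a8 0.31 and Ahr 0.05. Serpina1a was 0.75 and Ugt1a6a 0.06 without vehicle mouse 1, and Lum −0.25 without vehicle mouse 5. Ahr, Gsta1 and Ugt1a6a also moved by over 1.5 times without other mice. With median-centring the all-gene median was 0.09 in place of 0.00, which turned the list medians of complement to 0.00, extracellular matrix to 0.07, alveolar type 1 cell to 0.11, ciliated cell to 0.08, mitosis to 0.15, DNA replication to 0.13, DNA repair to 0.12, fatty acid oxidation to 0.01 and other xenobiotic enzymes to 0.17. Without vehicle mouse 1, chosen after seeing the data, the fat medians were −1.23 and −1.06. The medians of AhR, NRF2 and interferon-stimulated genes became 0.25, 0.21 and 0.25, and that of mesothelium −0.27. No paired analysis was possible because vehicle and dosed mice are different animals that share no number, and arrays were matched only by slide, as in the fits with slide as a block.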
